A study of Mus musculus with 18 samples.

Results

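Transcript levels of 38 genes of the cell cycle were followed in mouse cells that were led from a primed pluripotent state to primordial germ cell-like cells (PGCLC), with and without the nuclear receptor Esrrb. The members are the rows of the expression table whose symbol is on a list of 20 genes of DNA replication and entry to S phase (G1/S) and 18 genes of mitosis (G2/M), out of 25909 genes in all. All 38 were found, and all 38 were among the 12856 genes that passed the filter on low counts. The cells are SGET embryonic stem cells of strain B6CBA/129, which carry a pair of fluorescent reporters. There were 6 groups of 3 polyA RNA libraries each. They were Esrrb KO EpiLC and WT EpiLC, KO and WT PGCLC after 3 days, and KO and WT PGCLC after 5 days. EpiLC (epiblast-like cells) were grown from naive stem cells with activin A and bFGF and were left unsorted. PGCLC were grown from EpiLC with BMP4, LIF, SCF, BMP8a and EGF and were sorted for high signal of one reporter and low signal of the other (SG+ETlow), so the step from EpiLC to day 3 joins a change of culture with a sort, and these cannot be told apart. The KO libraries come from 3 lines named A5, B1 and A2, each present at every stage, and WT libraries carry the numbers 1 to 3. The labels do not give the deleted part of Esrrb or say whether WT libraries were separate cultures, so p-values measure only the spread between these libraries, which may be technical. The late libraries are named d6 in the descriptions and day 5 in the titles, and day 5 is used here.

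A dividing cell first decides in G1 whether to copy its DNA. D cyclins with Cdk4 or Cdk6, and then E cyclins with Cdk2, release E2F factors from the retinoblastoma protein, while inhibitors such as Cdkn1b hold these kinases back. E2F factors then raise the genes of origin licensing, of the replicative helicase and of nucleotide supply. Genes of spindle assembly and chromosome segregation come on later, through promoters that often hold CCAAT boxes and the cell cycle homology region (CHR), which is bound by the DREAM and MuvB complexes with B-Myb or Foxm1. Pluripotent mouse cells divide fast with a short G1 phase, and germ cell precursors keep dividing after they are specified.

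Library totals ran from 3032965 to 5286330 counts. The 38 genes took between 0.757% (the library labelled KO EpiLC A2) and 1.18% (KO day 3, line B1) of the counts of a library. Levels below are CPM, which divide a count by the library total after TMM adjustment, given as mean ± SD of 3 libraries or library by library. Esrrb itself had 6.71, 4.54 and 39.8 CPM in KO EpiLC (lines A5, B1 and A2), against 33.3, 27.9 and 20.6 CPM in WT EpiLC. In its Esrrb level the library labelled KO A2 thus goes against its label at this stage. Its median log2 ratios to WT over chromosomes 1, 11 and 16 were 0.31, -0.49 and -0.44. These stood near those of line A2 at days 3 and 5, as given below. Results that rest on this library are given with and without it. At day 3 Esrrb had 162, 165 and 91.5 CPM in KO cells, against 627, 588 and 612 CPM in WT cells, and at day 5 it had 143, 201 and 129 CPM in KO cells, against 589, 598 and 563 CPM in WT cells. The 7 germ cell markers summed to between 611 and 1130 CPM in PGCLC libraries and between 76.3 and 109 CPM in EpiLC libraries, and the 5 formative markers to between 300 and 534 CPM in PGCLC and between 1670 and 5040 CPM in EpiLC, as the labels give the stages.

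Promoter sequences, from 250 bases before to 50 bases after the start site, were found in the RefSeq table (GRCm38.p6) for 31 of the 38 genes, 16 of replication and 15 of mitosis. Among mitosis genes 14 of 15 promoters held a CCAAT box (93.3%, against 41.1% of the 27025 genes in the table). A CHR, searched as TTTGAA or TTCGAA, stood in 12 of 15 (80%, against 21.7% of all genes). An E2F motif, searched as TTTCCCGC, TTTCGCGC, TTTGCCGC or TTTGGCGC, stood in 1 of 15 (6.67%). Among replication genes the E2F motif stood in 6 of 16 (37.5%, against 2.6% of all genes), the CCAAT box in 10 of 16 (62.5%) and the CHR in 2 of 16 (12.5%). The motif AAGGTCA, which Esrrb and its relatives bind, stood in 1 of 16 replication promoters (6.25%, against 5.38% of all genes), at the first of the start sites of Ccnd3, and in 0 of 15 mitosis promoters. Both strands were searched, and a match is a description of the letters, not of binding. The 6 promoters printed here belong to genes whose levels carry the results below, 4 of mitosis with both the CCAAT box and the CHR, and 2 of the replicative helicase with E2F motifs. Capitals mark CCAAT, CHR and E2F matches on either strand, and of the 3 E2F matches of Mcm6 the first 2 overlap.
Mki67 (chr7:135716330-135716629, minus strand): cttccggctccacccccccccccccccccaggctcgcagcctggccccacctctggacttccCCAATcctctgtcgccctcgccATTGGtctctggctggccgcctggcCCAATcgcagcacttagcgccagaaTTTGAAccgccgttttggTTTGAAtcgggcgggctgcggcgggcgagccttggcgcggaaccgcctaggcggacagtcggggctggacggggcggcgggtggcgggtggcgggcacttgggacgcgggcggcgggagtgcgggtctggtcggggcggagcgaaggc
Kif11 (chr19:37376132-37376431, plus strand): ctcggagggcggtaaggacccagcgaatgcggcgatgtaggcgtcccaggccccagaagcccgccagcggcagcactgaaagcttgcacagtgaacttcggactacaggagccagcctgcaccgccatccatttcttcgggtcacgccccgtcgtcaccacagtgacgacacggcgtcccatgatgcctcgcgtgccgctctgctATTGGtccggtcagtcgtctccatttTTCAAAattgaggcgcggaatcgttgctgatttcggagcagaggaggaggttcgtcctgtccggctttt
Aurka (chr2:172370521-172370820, minus strand): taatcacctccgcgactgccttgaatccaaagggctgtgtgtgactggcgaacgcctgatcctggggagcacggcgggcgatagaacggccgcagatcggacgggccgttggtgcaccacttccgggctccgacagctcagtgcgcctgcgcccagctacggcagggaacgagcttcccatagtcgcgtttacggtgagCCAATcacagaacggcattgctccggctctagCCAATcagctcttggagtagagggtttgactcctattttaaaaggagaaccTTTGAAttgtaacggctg
Cdc20 (chr4:118437294-118437593, minus strand): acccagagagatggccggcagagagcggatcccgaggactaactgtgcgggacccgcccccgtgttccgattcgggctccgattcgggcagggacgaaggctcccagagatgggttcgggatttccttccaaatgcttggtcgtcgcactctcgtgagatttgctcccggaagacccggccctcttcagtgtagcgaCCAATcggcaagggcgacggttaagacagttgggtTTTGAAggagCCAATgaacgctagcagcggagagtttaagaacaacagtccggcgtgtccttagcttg
Mcm3 (chr1:20820263-20820562, minus strand): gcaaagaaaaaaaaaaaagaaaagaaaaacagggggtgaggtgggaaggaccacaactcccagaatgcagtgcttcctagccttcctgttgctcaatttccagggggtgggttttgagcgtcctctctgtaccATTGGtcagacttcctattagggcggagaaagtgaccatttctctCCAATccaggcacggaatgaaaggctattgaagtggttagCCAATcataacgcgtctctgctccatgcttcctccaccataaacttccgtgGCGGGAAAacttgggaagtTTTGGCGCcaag
Mcm6 (chr1:128359656-128359955, minus strand): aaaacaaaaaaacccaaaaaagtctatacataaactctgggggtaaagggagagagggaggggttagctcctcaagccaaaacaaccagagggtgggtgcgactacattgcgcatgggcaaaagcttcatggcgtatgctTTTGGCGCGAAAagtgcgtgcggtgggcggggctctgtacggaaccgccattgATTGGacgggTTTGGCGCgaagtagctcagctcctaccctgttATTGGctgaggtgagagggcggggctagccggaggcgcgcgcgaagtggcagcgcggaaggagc
Of the mitosis promoters Birc5 held neither motif, and Ccnb1 and Cenpe held a CCAAT box without a CHR. The place of the motifs differs between genes. In Mki67 the CHR matches begin 116 and 98 bases before the start, downstream of all 3 CCAAT matches. In Kif11 the CCAAT match begins 45 bases before the start and the CHR match 19 bases before it, and in Cdc20 the CCAAT matches begin 53 and 8 bases before the start and the CHR match 18 bases before it. In Mcm3 the E2F matches lie 19 and 38 bases after the start, and in Mcm6 they begin 110, 106 and 47 bases before it.

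Across the 18 libraries the genes of the replication machinery and of mitosis were all expressed at every stage, and the spread within a gene was widest for the D cyclins. Ccnd2, a D cyclin, ran from 0.231 to 76.4 CPM, and Ccnd3, its paralog, from 50.2 to 451 CPM. For comparison, Mcm2, a subunit of the replicative helicase, ran from 406 to 584 CPM, and Top2a, the topoisomerase that untangles chromosomes, from 922 to 2550 CPM. By the ratio of the highest to the lowest library, Cdkn1b (3.96) and Gins2 (3.11) follow the D cyclins Ccnd2 and Ccnd3. Because the D and E cyclins, E2f1 and Cdkn1b regulate the machinery and are not part of it, the 14 remaining replication genes (Pcna, Mcm2 to Mcm7, Cdc6, Cdt1, Gins2, Rrm1, Rrm2, Tyms and Tk1) are called replication factors below, a split made after the values were seen.

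**Figure D1:**
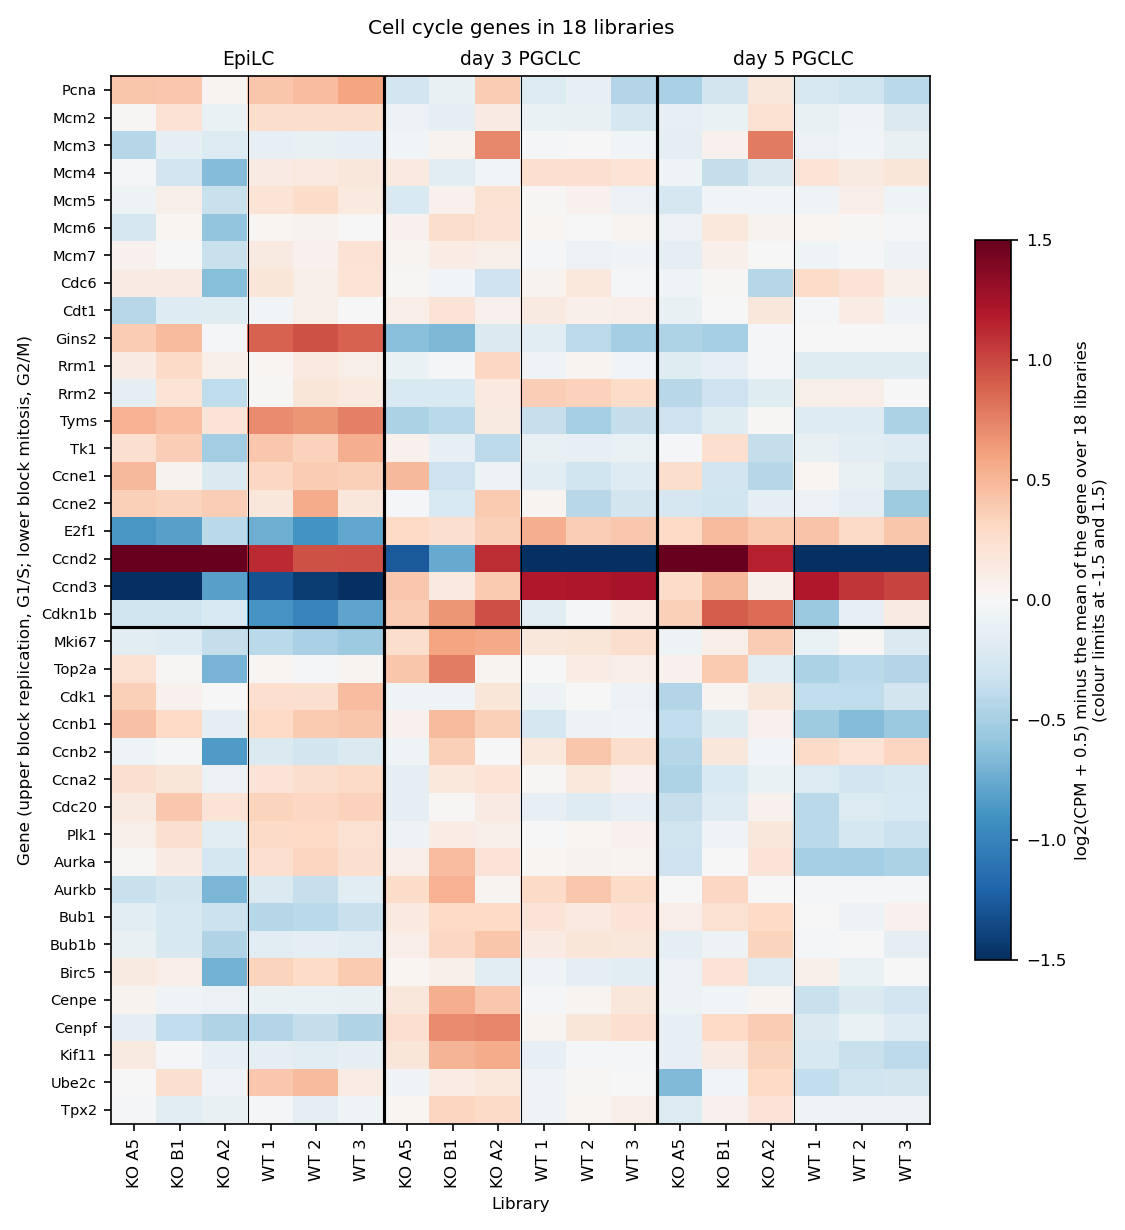
Level of the 38 cell cycle genes (rows; replication above, mitosis below the heavy line) in 18 libraries (columns; KO left of WT at each stage), as log2(CPM + 0.5) minus the gene's mean over all libraries. Gins2 and Tyms are highest in WT EpiLC, Ccnd3 is highest in WT PGCLC, and Ccnd2 is lowest in WT PGCLC.

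In WT cells the step from EpiLC to day 3 PGCLC changed all 6 regulators of G1 and lowered part of the replication machinery, while mitosis genes moved both ways. Ccnd3, E2f1 and Cdkn1b rose, and Ccnd2, Gins2, Tyms and Pcna fell. Of the 38 genes 9 rose and 12 fell at an adjusted p under 0.05 (edgeR quasi-likelihood), where 57.5% of all tested genes passed, 29% higher and 28.5% lower. A fit of only those 2 groups called 11 higher and 19 lower, where 77.8% of all genes passed in it. The median log2 fold change was -0.15 over the 20 replication genes and 0.08 over the 18 mitosis genes, against 0 over all tested genes, with quartiles of -0.55 and 0.61. Libraries of the stages did not overlap for 14 of the 38 genes that stood higher and 18 that stood lower at day 3, where 38.7% and 38.2% of all tested genes did so. In bulk RNA, fewer cells in a phase of the cycle and less RNA per cell cannot be told apart.

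Ccnd3 had 440, 445 and 451 CPM in WT day 3 PGCLC, against 77.1, 70.9 and 66.8 CPM in WT EpiLC. The groups stand far apart, with a log2 fold change of 2.64 ± 0.21 (SE; adjusted p = 8.04e-08). Ccnd2 had 2, 7 and 3 counts (0.483, 1.32 and 0.682 CPM) in WT day 3 PGCLC, against 47, 44 and 42 counts (12.3, 10.9 and 11 CPM) in WT EpiLC. It was close to absent in every WT day 3 library, and its log2 fold change of -3.68 ± 0.78 (adjusted p = 0.000866) rests on those few counts. E2f1, the activating E2F factor, averaged 98.6 ± 6.09 CPM in WT day 3 PGCLC and 41.6 ± 2.31 CPM in WT EpiLC (log2 fold change 1.24 ± 0.11, adjusted p = 2.44e-07). Cdkn1b, the kinase inhibitor of G1, averaged 45.1 ± 4.14 CPM in WT day 3 PGCLC and 24.5 ± 1.68 CPM in WT EpiLC (0.88 ± 0.19, adjusted p = 0.000849). Neither E2f1 nor Cdkn1b overlapped between the groups. The E cyclins, which act with Cdk2 at the start of S phase, both fell, Ccne1 by 0.56 and Ccne2 by 0.54 on the log2 scale, with adjusted p of 0.0263 and 0.0177.

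Of the 14 replication factors 5 fell and none rose. Gins2, a subunit of the GINS complex of the active helicase, had 50.5, 42.9 and 39.8 CPM in WT day 3 PGCLC, against 105, 110 and 105 CPM in WT EpiLC. Every day 3 library lies under every EpiLC library, at a log2 fold change of -1.27 ± 0.16 (adjusted p = 5.78e-06). Tyms, which makes thymidylate, had 56, 50.3 and 55.2 CPM in WT day 3 PGCLC, against 116, 113 and 120 CPM in WT EpiLC (-1.11 ± 0.15, adjusted p = 1.09e-05). Pcna, the sliding clamp of the DNA polymerases, had 163, 172 and 138 CPM in WT day 3 PGCLC, against 251, 259 and 284 CPM in WT EpiLC (-0.75 ± 0.17, adjusted p = 0.00161). Tk1, which salvages thymidine, fell by 0.55 and Mcm2 by 0.42 on the log2 scale. The other helicase subunits did not pass the test, with log2 fold changes between -0.20 (Mcm5 and Mcm7) and 0.09 (Mcm3 and Mcm4). The same holds for the licensing factors Cdc6 (-0.10) and Cdt1 (0.09), and for the subunits of ribonucleotide reductase Rrm1 (-0.11) and Rrm2 (0.21).

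Of the 18 mitosis genes 6 rose and 4 fell in WT cells, while a fit of only those 2 groups called 7 higher and 8 lower and limma-trend 6 higher and 2 lower. Mki67, a coat protein of mitotic chromosomes, had 401, 402 and 428 CPM in WT day 3 PGCLC, against 268, 254 and 243 CPM in WT EpiLC. The groups do not overlap, at a log2 fold change of 0.69 ± 0.11 (adjusted p = 9.8e-05). The kinetochore protein Cenpf (0.57 ± 0.14), the chromosomal passenger kinase Aurkb (0.57 ± 0.13), the spindle checkpoint kinases Bub1 (0.56 ± 0.08) and Bub1b (0.31 ± 0.12) and the cyclin Ccnb2 (0.52 ± 0.18) also rose. Ccnb1, the partner of Cdk1 at entry to mitosis, had 125, 141 and 144 CPM in WT day 3 PGCLC, against 183, 196 and 200 CPM in WT EpiLC, again with no overlap (-0.50 ± 0.14, adjusted p = 0.00648). Cdk1 itself fell by 0.38, Birc5, a partner of Aurkb, by 0.46, and Cdc20, the activator of the anaphase-promoting complex, by 0.48. Birc5 and its partner Aurkb thus moved in opposite directions, and so did the cyclins Ccnb1 and Ccnb2. Leaving out single libraries ended the calls of Tk1, Ccne1, Ccne2, Cdk1, Ccnb2, Birc5 and Bub1b in some fits and of no other of the 21 genes. Bub1b lost its call in all 6 fits (0.31 to 0.33, adjusted p up to 0.0755). With EpiLC libraries named E and day 3 libraries D, Tk1 lost it without E3 or D2 (-0.59 to -0.49 over the fits), Ccne1 without E2, E3, D2 or D3 (-0.59 to -0.52), and Ccne2 without E2, D2 or D3 (-0.68 to -0.39). Cdk1 lost it without E3, D1 or D3 (-0.42 to -0.30), Ccnb2 without E2, E3 or D2 (0.45 to 0.58), and Birc5 without E1, E3, D2 or D3 (-0.49 to -0.43).

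**Figure D2:**
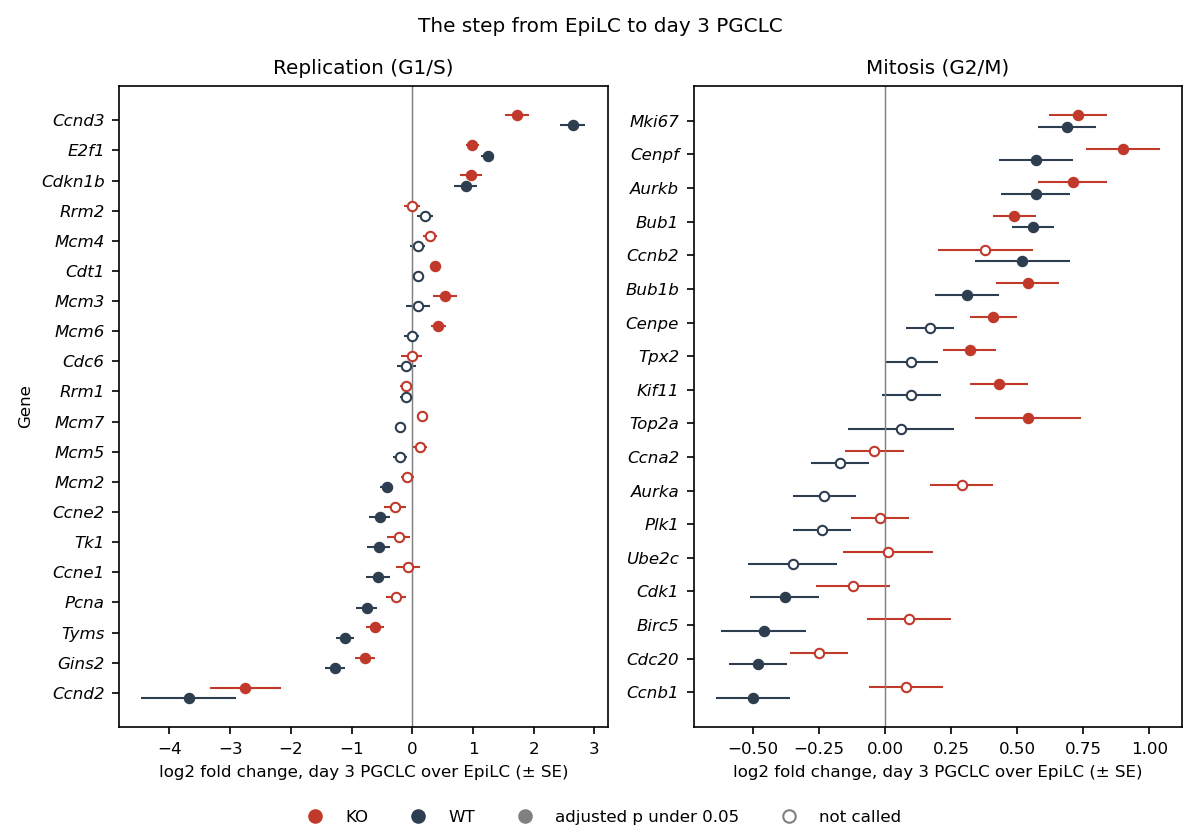
Log2 fold change of each gene between day 3 PGCLC and EpiLC (± SE) in KO cells (red) and WT cells (dark), replication genes at left and mitosis genes at right, with filled points for an adjusted p under 0.05. Ccnd3, E2f1 and Cdkn1b are filled to the right and Ccnd2, Tyms and Gins2 to the left of 0 in both genotypes, and most points of the other genes lie further right in KO cells.

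In KO cells the same step raised 15 of the 38 genes and lowered 3, where 42% of all tested genes passed, 20.6% higher and 21.4% lower. The regulators went as in WT cells, with Ccnd3 (1.73 ± 0.20), E2f1 (0.99 ± 0.11) and Cdkn1b (0.97 ± 0.18) higher and Ccnd2 (-2.75 ± 0.58) lower. Without the library labelled KO EpiLC A2 the log2 fold change of Ccnd2 was -1.77 ± 0.44 and that of Ccnd3 2.16 ± 0.13, both called. Gins2 (-0.78 ± 0.16) and Tyms (-0.62 ± 0.15) fell, and no mitosis gene did. The helicase subunits Mcm3 (0.54 ± 0.20) and Mcm6 (0.43 ± 0.12) and the licensing factor Cdt1 (0.38 ± 0.09) rose, as did 9 of the 18 mitosis genes. Of the 38 genes 14 stood higher at day 3 with no overlap between the libraries and 4 lower (20.2% and 19.6% of all tested genes). Cenpf had 339, 466 and 476 CPM in KO day 3 PGCLC (lines A5, B1 and A2), against 258, 221 and 208 CPM in KO EpiLC (0.90 ± 0.14, adjusted p = 9.15e-05). Lines B1 and A2 stand higher than A5 at day 3, and all 3 stand above every KO EpiLC library. Mki67 (0.73 ± 0.11), Aurkb (0.71 ± 0.13), Top2a and Bub1b (both 0.54), Bub1 (0.49 ± 0.08), the spindle motor Kif11 (0.43 ± 0.11), the kinetochore motor Cenpe (0.41 ± 0.09) and the spindle assembly factor Tpx2 (0.32 ± 0.10) rose as well. The Top2a libraries overlap between the groups, with 2000, 2550 and 1540 CPM in KO day 3 PGCLC and 1750, 1510 and 922 CPM in the libraries labelled KO EpiLC.

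The median log2 fold change of the 18 mitosis genes in this step was 0.35 in KO cells and that of all tested genes -0.03, and without the library labelled KO EpiLC A2 they were 0.25 and 0. Pcna, Mcm2, Tk1, Ccne1, Ccne2, Ccnb1, Cdc20, Birc5 and Cdk1, which fell in WT cells, had log2 fold changes between -0.29 (Ccne2) and 0.09 (Birc5) in KO cells and did not pass. KO lines keep their deviations across stages, so the fit with a term for each line applies, and in it Mcm4 rose as well (0.29 ± 0.09, adjusted p = 0.0164) and Cdc20 fell (-0.25 ± 0.09, adjusted p = 0.0296). Among fits without 1 library, the call of Mcm3 was lost without day 3 A2 or any one EpiLC library (0.27 to 0.68, adjusted p up to 0.246), that of Top2a without the library labelled KO EpiLC A2, day 3 A5 or day 3 B1 (0.32 to 0.74, adjusted p up to 0.2), and that of Tpx2 without EpiLC B1 or day 3 B1 (0.26 to 0.41, adjusted p up to 0.077). Without all libraries of line A2 the number called was 26, with 15 higher and 11 lower, where 28% of all tested genes were higher and 29% lower.

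Whether the step differed between the genotypes is a test of its own, and none of the 38 genes passed it by edgeR, where 6.59% of all tested genes did, 2.96% with a positive and 3.63% with a negative difference. At an unadjusted p under 0.05 there were 10 of 38, a count not set against a share of all genes and so not read further. DESeq2 called 3 and limma-trend on the deposited CPM none. The difference, KO step minus WT step, was above 0 for 33 of the 38 genes, with a median of 0.27 against 0 over all tested genes (quartiles -0.38 and 0.30). Without the library labelled KO EpiLC A2 it was above 0 for 30 genes with a median of 0.22, and without all of line A2 for 28 with a median of 0.15. A fit with a term for each line also joins WT libraries by number, though WT numbers do not pair them across stages. In it 4 genes passed, all with a larger fold change in KO cells. They were the cyclin Ccne1 (0.49 ± 0.13, adjusted p = 0.0317), Birc5 (0.59 ± 0.16, adjusted p = 0.0345), Mcm6 (0.46 ± 0.13, adjusted p = 0.0444) and Top2a (0.49 ± 0.15, adjusted p = 0.0496). Without line A2 the count was 5, where 7.61% of all tested genes passed with a positive and 7.11% with a negative difference. Without KO EpiLC A5 and KO EpiLC B1 the count was 2 and 3. The counts by DESeq2, with a term for each line and without these single libraries are not set against a share of all genes. The KO EpiLC libraries lie lower than WT EpiLC for most of these genes, as given below, so that the start of the step and its end both enter this difference.

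From day 3 to day 5 the mitosis genes stood lower in WT cells by a small amount, and the replication genes had a median close to 0. None of the 38 genes passed the test in the fit of all 6 groups (0.77% of all tested genes did), with 13 at an unadjusted p under 0.05 (13.9% of all tested genes), 2 called by DESeq2 (2.54% of all genes) and none by limma-trend (1.17%). Without the library labelled KO EpiLC A2, which enters the pooled spread, 4 were called lower and 0 higher (2.5% and 2.13% of all tested genes). Without all of line A2 12 were lower, 11 of them mitosis genes, and 1 was higher (7.95% and 7.58%). With all libraries the median log2 fold change was -0.30 over the 18 mitosis genes and -0.05 over the 20 replication genes, against quartiles of -0.16 and 0.18 over all tested genes. It was negative for 17 of the 18 mitosis genes, all but Birc5 (0.12 ± 0.16). In 16 of the 18 every WT day 5 library lies under every WT day 3 library, where 20.6% of all tested genes do so and 20% show the reverse. Aurka, the kinase of the spindle poles, had 118, 117 and 120 CPM in WT day 5 PGCLC, against 170, 173 and 171 CPM in WT day 3 PGCLC. The gap is many times the spread of either group, yet the log2 fold change of -0.54 ± 0.12 had an adjusted p of 0.0506 in the fit that pools the spread of all 6 groups. Top2a had 1080, 1130 and 1100 CPM in WT day 5 PGCLC, against 1500, 1610 and 1600 CPM in WT day 3 PGCLC (-0.51 ± 0.20, adjusted p = 0.239).

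A fit of only those 2 groups called 17 of 37 genes tested in it, 1 higher and 16 lower, among them 14 of the 18 mitosis genes, where 30.9% of all genes were called. Of 49 further mitosis genes, listed beside the members, 47 had a negative log2 fold change in the fit of all groups, with a median of -0.21 and 19 at an unadjusted p under 0.05, where 13.9% of all tested genes were. Without all of line A2 22 of these 49 were called lower and 0 higher (7.95% and 7.58% of all tested genes). In KO cells the log2 fold change from day 3 to day 5 was negative for all 18 mitosis genes, with a median of -0.21, and the libraries overlap for all but Cenpe (6.39% of all tested genes stood lower and 7.39% higher with no overlap). None of the 38 passed (0.552% of all tested genes did), with 8 at an unadjusted p under 0.05 (12.3% of all tested genes) and 1 called by DESeq2 (1.31% of all genes). Without line A2 there were 8 called, 1 higher and 7 lower, where 3.59% of all tested genes were higher and 3.13% lower. The median over mitosis genes was -0.33 in that fit and 17 of 18 were negative. Cenpe, which carries chromosomes to the spindle equator, had 164, 168 and 177 CPM in KO day 5 PGCLC, against 194, 253 and 229 CPM in KO day 3 PGCLC. It passed in the fit with a term for each line (-0.40 ± 0.09, adjusted p = 0.0427) and missed the threshold without it (adjusted p = 0.0642). None of the 38 genes passed edgeR's test of the difference between the genotypes in the change from day 3 to day 5, where 0% of all tested genes did, and 0 of them reached an unadjusted p under 0.05. DESeq2 called none of the 38 either, and edgeR called 1 without line A2, where 0.516% of all tested genes passed with a positive and 0.139% with a negative difference.

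**Figure D3:**
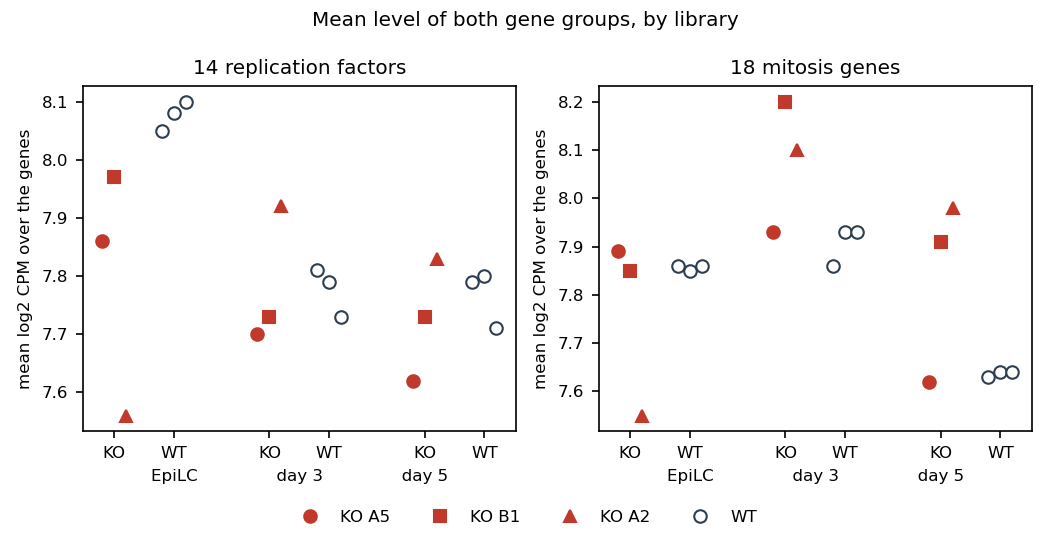
Mean log2 CPM over 14 replication factors (left) and 18 mitosis genes (right) in each library, KO left of WT at each stage; each point is 1 library. WT day 5 libraries lie at 7.63 to 7.64 for mitosis genes, under the WT day 3 libraries at 7.86 to 7.93, and KO line A5 lies beside WT at days 3 and 5 while B1 and A2 lie above.

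The mean log2 CPM of the 18 mitosis genes summarises this in each library. At EpiLC it was 7.76 ± 0.19 in KO cells and 7.86 ± 0.01 in WT cells (SD, n = 3), at day 3 it was 8.07 ± 0.13 and 7.91 ± 0.04 in KO and WT cells, and at day 5 it was 7.84 ± 0.19 and 7.63 ± 0.01 in KO and WT cells. The mean of the 14 replication factors was 7.79 ± 0.21 in KO EpiLC and 8.08 ± 0.02 in WT EpiLC, 7.79 ± 0.12 and 7.78 ± 0.04 in KO and WT cells at day 3, and 7.72 ± 0.11 and 7.77 ± 0.05 in KO and WT cells at day 5. The KO lines differ among themselves more than the WT libraries do at every stage. The lowest mitosis mean of all, 7.55, belongs to the library labelled KO EpiLC A2, and KO day 5 line A5, at 7.62, lies beside the WT libraries.

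Between KO and WT cells of the same stage few of the 38 genes differed, and at days 3 and 5 the largest fold changes were those of the G1 regulators Ccnd2, Ccnd3 and Cdkn1b. In EpiLC 2 were higher and 2 lower in KO cells, where 11.1% of all tested genes passed, 6.93% higher and 4.15% lower. At day 3 there were 3 higher and 2 lower (10.2% of all tested genes, 5% higher and 5.18% lower), and at day 5 there were 5 higher and 2 lower (17.5% of all tested genes, 9.83% higher and 7.62% lower). These shares are near those of all genes. Every KO library stood above every WT library for 6, 8 and 9 of the 38 genes in EpiLC, at day 3 and at day 5 (16%, 18.3% and 20.9% of all tested genes), and below for 11, 4 and 6 (16.3%, 18.3% and 20.3%). The counts depend on single libraries. In EpiLC no gene was called without any one of the 3 WT libraries or without the library labelled KO A2, and 9 were called without B1. Without that A2 library the shares of all tested genes fell as well, to 2.29% higher and 2.28% lower. The other counts without 1 library are not set against a share of all genes, so they are not read as results about these genes. At day 3 it was 1 without WT 1, 2 without WT 2, B1 or A2 and 8 without A5, and at day 5 it was 4 without any one WT library, 3 without A2 and 13 without A5. Some marker sums differed between the genotypes in the sorted cells as well while others overlapped, and their part was not tested. At day 3 the 8 naive markers summed to between 1370 and 1530 CPM in KO cells and between 2730 and 2850 CPM in WT cells, the 7 germ cell markers to between 805 and 1130 CPM in KO cells and between 1020 and 1070 CPM in WT cells, and the 7 trophoblast markers to between 60.2 and 151 CPM in KO cells and between 43.7 and 60.2 CPM in WT cells. At day 5 the 8 mesenchyme markers summed to between 31.8 and 102 CPM in KO cells, highest in A2, and between 15.7 and 18 CPM in WT cells, where Col1a2 and Col3a1 were at 0. The 8 naive markers summed to between 1370 and 1980 CPM in KO and between 2510 and 2650 CPM in WT cells. The day 5 sums of germ cell, formative, endoderm, trophoblast and neural markers overlapped between the genotypes.

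Ccnd2 had the largest difference of the 38 genes at every stage, and Ccnd3 the largest on the lower side at days 3 and 5. Ccnd3 had 57.2, 50.2 and 109 CPM in KO EpiLC (lines A5, B1 and A2), against 77.1, 70.9 and 66.8 CPM in WT EpiLC, with A2 above and the other lines below WT (log2 fold change 0.01 ± 0.21). At day 3 it had 254, 213 and 251 CPM in KO cells, against 440, 445 and 451 CPM in WT cells. All 3 KO lines lay well under WT (-0.89 ± 0.19, adjusted p = 0.00822). At day 5 it had 233, 269 and 203 CPM in KO cells, against 442, 404 and 389 CPM in WT cells (-0.81 ± 0.19, adjusted p = 0.00885), again with no overlap. Both calls held in every fit that left out 1 library of the stage. The rise of Ccnd3 from EpiLC to day 3 was smaller in KO cells by 0.91 ± 0.28 on the log2 scale, which missed the threshold (adjusted p = 0.0628), and without the library labelled KO EpiLC A2 by 0.48 ± 0.16 (adjusted p = 0.0747). Without all of line A2 the rise was smaller by 0.52 ± 0.13 and the difference passed (adjusted p = 0.0103). In KO cells the gene thus stood at 239 ± 23.1 CPM and in WT cells at 445 ± 5.64 CPM after a rise in both.

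Ccnd2 went the other way. It had 72, 78 and 62 counts (17.1, 16.8 and 12.7 CPM) in KO day 5 PGCLC, against 5, 4 and 1 counts (1, 0.801 and 0.231 CPM) in WT day 5 PGCLC. All 3 KO lines are high and all 3 WT libraries near 0, with a log2 fold change of 4.42 ± 0.78 (adjusted p = 0.00118) that held in every fit without a library. At day 3 it had 9, 9 and 48 counts in KO cells, against 2, 7 and 3 counts in WT cells, with line A2 far above the others (2.70 ± 0.84, adjusted p = 0.0525). In EpiLC it had 16.9, 22.7 and 76.4 CPM in KO cells, against 12.3, 10.9 and 11 CPM in WT cells (1.76 ± 0.54, adjusted p = 0.0469). The library labelled KO A2 stands highest there, and without it the log2 fold change was 0.79 and the call was lost, as it was without any one WT library (adjusted p up to 0.292). Ccnd1, the third D cyclin and not a member of the list, was higher in KO cells at day 3 (70.1 ± 12.3 CPM in KO and 27.8 ± 2.94 CPM in WT cells, 1.33 ± 0.36, adjusted p = 0.0287) and at day 5 (79.6 ± 26.3 CPM in KO and 32.9 ± 3.05 CPM in WT cells, 1.27 ± 0.35, adjusted p = 0.0212). The Ccnd1 call at day 3 was lost without any one library but A5 (1.20 to 1.45, adjusted p up to 0.102), and that at day 5 without B1 or any one WT library (0.97 to 1.43, adjusted p up to 0.0952).

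To set the 3 D cyclins side by side, counts were divided by the length of all annotated exons of a gene joined. It was 4709 bases for Ccnd1, 9409 for Ccnd2 and 8775 for Ccnd3. The transcripts present may be shorter, so the size of each share depends on the lengths used. By this measure the share of Ccnd3 in the sum was 12.5% ± 3.69 in KO EpiLC and 18% ± 2.2 in WT EpiLC. At day 3 it was 63.8% ± 6.12 in KO cells and 89.4% ± 1.06 in WT cells, and at day 5 59.6% ± 3.99 in KO cells and 86.9% ± 1.23 in WT cells. Ccnd1 held the rest almost alone, with 34.8% ± 6.15 in KO cells and 10.4% ± 1.1 in WT cells at day 3. In both genotypes the share of Ccnd3 thus rose and that of Ccnd1 fell, and the KO lines kept a larger share of Ccnd1 at days 3 and 5. Which of them was the more abundant transcript at a stage is not settled by these lengths. Ccnd1 fell in the step from EpiLC to day 3 by 2.01 ± 0.34 in KO cells and 2.62 ± 0.36 in WT cells on the log2 scale. Without the library labelled KO EpiLC A2 the log2 fold change in KO cells was -1.33 ± 0.21. The difference between the steps, KO minus WT, was 0.60 ± 0.48 with that library (adjusted p = 0.484) and 1.29 ± 0.30 without it (adjusted p = 0.0146).

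**Figure D4:**
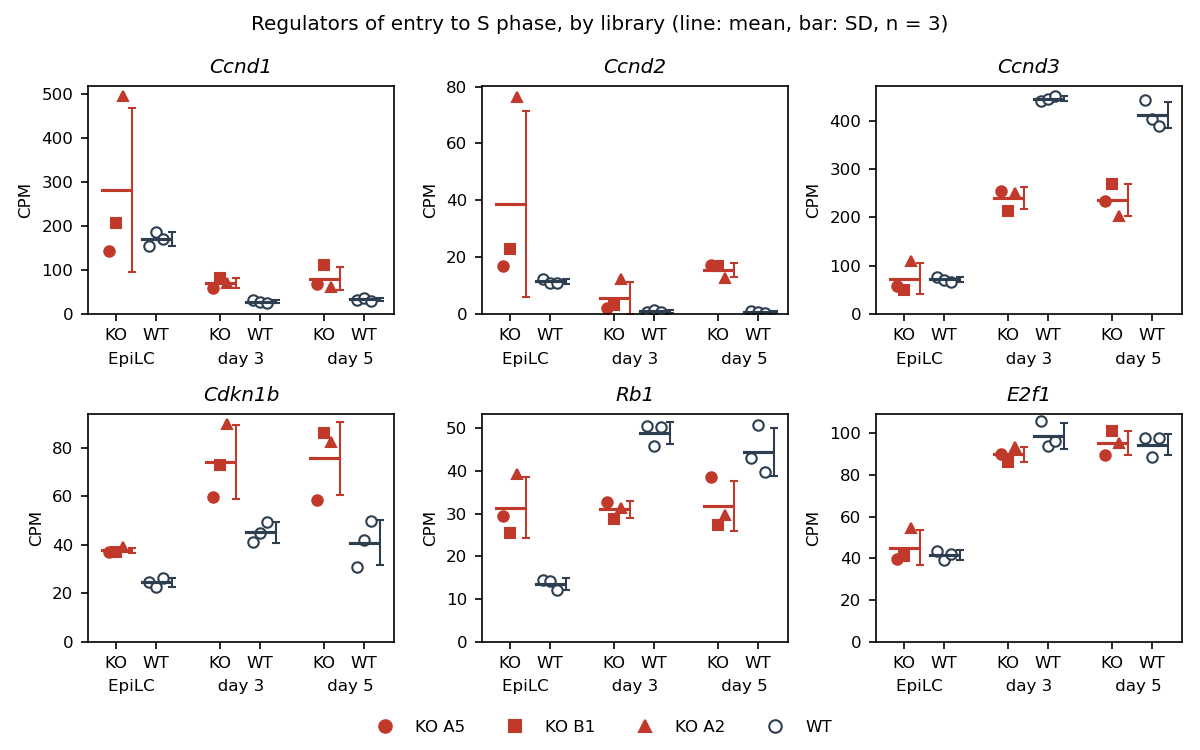
CPM of the D cyclins, Cdkn1b, Rb1 and E2f1 in each library, KO left of WT at each stage, with the mean (line) and SD (bar) of 3 libraries. Ccnd3 lies lower and Ccnd1, Ccnd2 and Cdkn1b lie higher in all KO lines than in WT at days 3 and 5, and Rb1 lies higher in KO EpiLC and lower in KO day 3 and day 5 PGCLC.

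Cdkn1b was higher in KO cells at all 3 stages. It had 37, 37.1 and 39 CPM in KO EpiLC, against 24.6, 22.7 and 26.1 CPM in WT EpiLC (0.62 ± 0.19, adjusted p = 0.0459). At day 3 it had 59.7, 72.8 and 90 CPM in KO cells, against 41, 45 and 49.3 CPM in WT cells (0.71 ± 0.18, adjusted p = 0.0175). At day 5 it had 58.5, 86.3 and 82.4 CPM in KO cells, against 31, 41.9 and 49.7 CPM in WT cells (0.89 ± 0.18, adjusted p = 0.00263). KO and WT libraries overlap at no stage. The day 5 call held in every fit without a library, the day 3 call was lost without WT 1, WT 2 or KO A2 (0.55 to 0.85, adjusted p up to 0.0956), and the EpiLC call was lost in all 6 (0.57 to 0.67, adjusted p up to 0.144). The rise from EpiLC to day 3 differed between KO and WT cells by 0.09 ± 0.26 on the log2 scale (adjusted p = 0.876).

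Rb1, which encodes the retinoblastoma protein, was one of the regulators listed beside the 38 genes. It had 29.4, 25.5 and 39.3 CPM in KO EpiLC, against 14.4, 14.1 and 12 CPM in WT EpiLC (1.22 ± 0.17, adjusted p = 0.0022). At day 3 it had 32.8, 28.8 and 31.3 CPM in KO cells, against 50.5, 45.9 and 50.2 CPM in WT cells (-0.65 ± 0.16, adjusted p = 0.0155), a call lost without WT 1, WT 3 or KO B1 (-0.70 to -0.61, adjusted p up to 0.0609). WT cells thus gained Rb1 transcript in the step (1.85 ± 0.17), while KO cells had a log2 fold change of -0.02. This difference between the steps passed the test (-1.87 ± 0.24, adjusted p = 0.000434) and did so in all 12 fits without a library. Cdkn1a, another kinase inhibitor, had 91.9, 110 and 238 CPM in KO EpiLC, against 45.9, 46.4 and 51.1 CPM in WT EpiLC (1.62 ± 0.25, adjusted p = 0.00395). Every KO library lies above every WT library, and A2 is highest. Without A2 the log2 fold change was 1.08 ± 0.13 and the call held. Of the other partners, Cdk4 had log2 fold changes of -0.65 in KO and -0.67 in WT cells between EpiLC and day 3, both called, and Cdk6 fell in WT cells (-1.13 ± 0.39), a call lost in 4 of 6 fits without a library (-1.28 to -1.02, adjusted p up to 0.0669). The inhibitor Cdkn1c fell in both genotypes (-1.97 in KO and -1.94 in WT cells) and was higher in KO cells at day 5 (1.09 ± 0.34, adjusted p = 0.039), a call lost without any one library but B1 (0.61 to 1.43).

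Of the 14 replication factors 13 had a negative log2 fold change between KO and WT EpiLC, with a median of -0.26, against 0.01 over all tested genes with quartiles of -0.23 and 0.32, and 2 of them passed. Without the library labelled KO EpiLC A2 the median was -0.14, with quartiles of -0.19 and 0.23 over all genes, and none passed by edgeR. Gins2 had 74.1, 78.9 and 55.5 CPM in KO EpiLC, against 105, 110 and 105 CPM in WT EpiLC (-0.62 ± 0.15, adjusted p = 0.022). Mcm4, a helicase subunit, had 414, 347 and 269 CPM in KO EpiLC, against 463, 469 and 477 CPM in WT EpiLC (-0.45 ± 0.12, adjusted p = 0.0297). The gene lies on chromosome 16, whose genes as a whole stood lower in lines B1 and A2, as described with the chromosomes. In both genes every KO library lies under every WT library and the library labelled KO A2 is lowest. Both calls were lost without A2 or without any one WT library, with log2 fold changes between -0.72 and -0.48 for Gins2 and between -0.61 and -0.31 for Mcm4. Sums of markers of other cell types differed between the genotypes as well, though the members of a list did not all move alike and the naive sums overlapped. The 9 endoderm markers summed to between 151 and 2120 CPM in KO EpiLC, highest in the library labelled A2, and to between 95.2 and 106 CPM in WT EpiLC, where Foxa2 was at 0. The 8 mesenchyme markers summed to between 112 and 662 CPM in KO EpiLC and between 53.6 and 58.9 CPM in WT EpiLC, and the 7 trophoblast markers to between 9.07 and 197 CPM in KO EpiLC and between 5.22 and 7.16 CPM in WT EpiLC, with Elf5 at 0 in both. The 5 formative markers summed to between 1670 and 3770 CPM in KO EpiLC and between 4940 and 5040 CPM in WT EpiLC, the 8 naive markers to between 90.2 and 371 CPM in KO EpiLC and between 174 and 218 CPM in WT EpiLC, and the 6 neural markers to between 251 and 369 CPM in KO EpiLC and between 180 and 197 CPM in WT EpiLC. In the library labelled KO EpiLC A2 the endoderm sum lay mostly in Krt8, Krt18 and Col4a1 (487, 686 and 913 CPM). Gata4, Gata6, Sox17, Sox7 and Foxa2 had 0.476 to 8.57 CPM there. Thy1, of the mesenchyme list, had 14.6, 20.7 and 2.86 CPM in KO EpiLC, against 26.7, 24.7 and 30.3 CPM in WT EpiLC. Tubb3, of the neural list, had 103, 122 and 26.9 CPM in KO EpiLC, against 101, 94.6 and 84.5 CPM in WT EpiLC. Nes stood above WT in every KO EpiLC library. The part of such cells in the result was not tested.

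At day 3 the median over the 14 replication factors was 0.06 and at day 5 it was 0.04. Rrm2, the regulated subunit of ribonucleotide reductase, had 252, 252 and 329 CPM in KO day 3 PGCLC, against 382, 376 and 359 CPM in WT day 3 PGCLC (-0.42 ± 0.13, adjusted p = 0.0453). No KO library reaches WT, but the call was lost without any one library other than A2 (-0.57 to -0.36, adjusted p up to 0.152). At day 5 Rrm2 had 222, 239 and 260 CPM in KO cells, against 314, 317 and 298 CPM in WT cells (-0.37 ± 0.13, adjusted p = 0.0589). Mcm4 at day 5 had 405, 331 and 365 CPM in KO cells, against 489, 466 and 481 CPM in WT cells (-0.38 ± 0.12, adjusted p = 0.0403), a call lost without any one library other than A5 (-0.46 to -0.31, adjusted p up to 0.139). The remaining factors at day 5 had log2 fold changes between -0.37 (Rrm2) and 0.37 (Mcm3).

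Among mitosis genes the log2 fold change between KO and WT cells was positive for 16 of 18 at day 3 (median 0.14) and 15 of 18 at day 5 (median 0.24), and 2 and 3 of them passed. Without line A2 it was positive for 14 of 18 on both days, with medians of 0.11 and 0.16. In that fit 4 were called higher on each day, where 10.6% and 15.7% of all tested genes were higher. With all libraries these shares were 5% and 9.83%. Without only the library labelled KO EpiLC A2, which enters the pooled spread, 4 were called higher at day 3 and 8 at day 5. Of all tested genes 9.57% and 15.1% were higher in that fit. At day 5 it called 1 of the 18 lower (12.5% of all tested genes). Kif11, the motor that pushes spindle poles apart, had 250, 315 and 323 CPM in KO day 3 PGCLC, against 202, 218 and 218 CPM in WT day 3 PGCLC (0.48 ± 0.11, adjusted p = 0.0139). At day 5 it had 203, 240 and 278 CPM in KO cells, against 187, 174 and 168 CPM in WT cells (0.45 ± 0.11, adjusted p = 0.0124). The groups are apart at both days, with A5 the lowest KO line each time. The Kif11 call was lost without WT 1, B1 or A2 at day 3 (0.41 to 0.59, adjusted p up to 0.0648) and without WT 3 or A2 at day 5 (0.33 to 0.56, adjusted p up to 0.072). Cenpe at day 3 had 194, 253 and 229 CPM in KO cells, against 170, 177 and 195 CPM in WT cells, and the groups overlap (0.32 ± 0.09, adjusted p = 0.0368), with the call lost without WT 1, WT 2, B1 or A2 (0.22 to 0.41, adjusted p up to 0.162). Aurka at day 5 had 134, 166 and 191 CPM in KO cells, against 118, 117 and 120 CPM in WT cells (0.47 ± 0.12, adjusted p = 0.0156). Ccnb1 at day 5 had 115, 132 and 156 CPM in KO cells, against 103, 94.9 and 101 CPM in WT cells (0.43 ± 0.14, adjusted p = 0.0466). In both genes the KO libraries lie above WT and spread further. The Aurka call was lost without WT 1, WT 2 or A2 (0.34 to 0.59, adjusted p up to 0.0886) and the Ccnb1 call without any one library other than A5 (0.31 to 0.53, adjusted p up to 0.207). Ccnb2 and Birc5 are the members of mitosis with the lowest values at day 5, at -0.35 ± 0.18 and -0.02 ± 0.16, and neither passed.

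Further genes of the same processes were read from 3 lists, with 47 replication genes, 49 tested mitosis genes and 31 regulators. In the step from EpiLC to day 3, 6 of the 47 replication genes rose and 20 fell in WT cells (median -0.28), where 29% of all tested genes rose and 28.5% fell. In KO cells 7 rose and 3 fell (20.6% and 21.4% of all tested genes). Without the library labelled KO EpiLC A2 4 rose and 15 fell (25.5% and 24.6% of all tested genes). Without all of line A2 it was 7 and 23 (28% and 29%). The largest falls in WT cells were those of the chromatin remodeller Hells (-1.12 ± 0.12), the clamp loader subunit Dscc1 (-1.01 ± 0.23) and the flap nuclease Fen1 (-0.88 ± 0.11), while the initiation factors Cdc45 (0.55 ± 0.17) and Orc1 (0.50 ± 0.09) rose. In KO cells Orc1 (0.64 ± 0.09), the uracil glycosylase Ung (0.63 ± 0.10) and the ligase Lig1 (0.59 ± 0.09) rose most. Of the 49 mitosis genes 24 rose and 5 fell in WT cells (median 0.27), and 30 rose and 1 fell in KO cells (median 0.38), against the shares of all genes given for all libraries. Mybl2, which encodes B-Myb, led in both genotypes, with log2 fold changes of 1.19 ± 0.19 in KO and 1.47 ± 0.19 in WT cells, and Cks1b, a binding partner of Cdk1 and Cdk2, was lowest, with -0.64 ± 0.10 in KO and -0.91 ± 0.10 in WT cells.

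Between KO and WT EpiLC 8 of the 47 replication genes were lower and none higher in KO cells (median -0.23), where 4.15% of all tested genes were lower and 6.93% higher. Without the library labelled KO EpiLC A2 there were 4 lower and none higher, with a median of -0.07, and 2.28% and 2.29% of all genes. The 8 were led by the chromatin assembly factor Chaf1b (-0.75 ± 0.18), Ung (-0.67 ± 0.10) and the clamp loader subunit Rfc3 (-0.54 ± 0.16). At day 3 the mitosis list had 2 higher and 2 lower (5% and 5.18% of all tested genes), and at day 5 it had 7 higher and 1 lower (9.83% and 7.62%). Nusap1 (0.72 ± 0.15), a spindle protein, Foxm1 (0.47 ± 0.12), a transcription factor of mitosis genes, and the motor Kif20b (0.46 ± 0.10) were higher in KO cells at day 5. Mybl2 went against them. It had 382, 396 and 372 CPM in KO day 3 PGCLC, against 664, 634 and 638 CPM in WT day 3 PGCLC (-0.75 ± 0.19, adjusted p = 0.0183). It had 347, 381 and 400 CPM in KO day 5 PGCLC, against 580, 586 and 560 CPM in WT day 5 PGCLC (-0.61 ± 0.19, adjusted p = 0.0338). The groups are far apart at both days, although the day 3 call was lost without A2 or any one WT library (-0.78 to -0.73, adjusted p up to 0.0664) and the day 5 call without any one of the 6 libraries (-0.66 to -0.56, adjusted p up to 0.0929). Among the regulators E2f3, another activating E2F factor, was higher in KO cells at day 3 (0.51 ± 0.12) and day 5 (0.73 ± 0.12, adjusted p = 0.000577). Among the genes of these lists named for KO against WT, calls were also lost in 3 fits for Chaf1b (-0.97 to -0.52) and 5 for Rfc3 (-0.74 to -0.36) in EpiLC, in 2 for E2f3 (0.37 to 0.58) at day 3 and in 3 for Foxm1 (0.33 to 0.57) at day 5.

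Some chromosomes stood away from WT as a whole in single KO lines, at all 3 stages, and 12 of the 38 genes lie on them. In line A2 the median log2 ratio to the WT mean was 0.31 over the genes of chromosome 1 at every stage, between -0.49 and -0.43 over chromosome 11 and between -0.46 and -0.43 over chromosome 16. In line B1 it was between -0.48 and -0.42 over chromosome 16, and over chromosome 8 it was between -0.18 and -0.09 in all 3 lines. Mcm4, on chromosome 16 (GRCm38, chr16:15623897-15637400), had log2 ratios of -0.18, -0.44 and -0.80 in KO EpiLC lines A5, B1 and A2, and of -0.24, -0.53 and -0.39 at day 5. Minus the median of chromosome 16 in the same library these were -0.12, 0.04 and -0.36 in EpiLC and -0.24, -0.11 and 0.07 at day 5. Mcm3, on chromosome 1 (chr1:20802968-20820312), had 509, 545 and 865 CPM in KO day 3 PGCLC, against 512, 524 and 511 CPM in WT day 3 PGCLC, with A2 alone far above WT. The 5 genes on chromosome 11 (Cdc6, Tk1, Top2a, Aurkb and Birc5) were all lower than WT in the library labelled KO EpiLC A2, with a median log2 ratio of -0.79, and their median in line A2 was -0.28 at day 3 and -0.20 at day 5. The 26 genes on other chromosomes had medians of -0.31, 0.26 and 0.33 in the same libraries. The part of the chromosomes in the calls was not tested gene by gene. With the 12 genes left out of the counts, a choice made after the values were seen, 2 of the 4 calls in EpiLC and 11 of the 18 calls in the KO step were left.

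**Figure D5:**
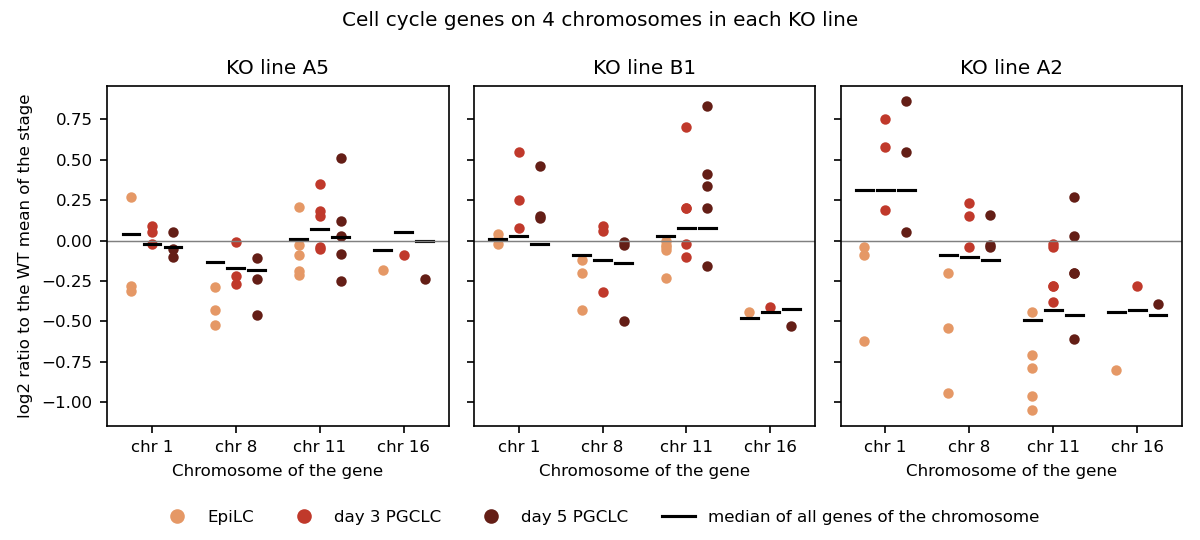
Log2 ratio of each KO library to the WT mean of its stage for the 12 cell cycle genes on chromosomes 1, 8, 11 and 16 (points, coloured by stage), 1 panel per KO line, with the median of all genes of the chromosome as a short line. In line A2 the short lines lie at 0.31 for chromosome 1 and at -0.43 or lower for chromosomes 11 and 16 at every stage, and in line B1 those of chromosome 16 lie between -0.48 and -0.42.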

How the data were processed

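RNA for the 18 libraries (grouped by their titles, 3 to a group) was purified with a PicoPure kit and made into directional libraries with NEBNext Ultra II reagents, per the labels' protocols. Trim Galore 0.4.3.1 and the genome builds mm10 and GRCm38.p4 stand in the submitters' processing notes. Neither the aligner nor the counting tool, annotation or strand setting is named there (not given in the sources used here), and reads of genes that overlap on opposite strands may be mixed. The authors deposited raw counts per gene for each library and a table of CPM. Each CPM value is its count over the total of the library. Of 25965 rows, 56 carry no gene ID (0.0559% to 0.0828% of a library) and were left out.

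The test was edgeR 4.0.16 (R 4.3.3). After filterByExpr 12856 genes remained. With TMM factors of 0.964 to 1.04 they were fitted in 1 robust quasi-likelihood model with a mean per group (common dispersion 0.0283), and p-values were adjusted by Benjamini-Hochberg over all tested genes within each of 9 comparisons, with calls at an adjusted p under 0.05. The 38 members and the lists of further replication, mitosis, regulator and marker genes were chosen with earlier results of these data known, as were the motifs. Named genes are all members, Esrrb, up to 3 called genes with the largest change in each direction of each further list and comparison, and Ccnd1, Cdk4, Cdk6, Rb1, Cdkn1a and Cdkn1c. KO lines pair libraries across stages (correlations of deviations from the group mean 0.17 to 0.588), being the same lines, while WT numbers do not (-0.023 to 0.066). No pair of libraries was identical. Alternatives were RLE factors, no filter, DESeq2 1.42.0, limma-trend (limma 3.58.1) on deposited CPM as log2(CPM + 1), a fit of the compared groups alone, omission of each library or of line A2, and a term for each line. The test was checked on simulated data. Positions are from GENCODE M21 (GRCm38), promoters from RefSeq (GRCm38.p6).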

Additional observations from a re-analysis of the deposited data

Results flagged for a closer look

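None of the 38 genes showed a called difference between the genotypes in the step from EpiLC to day 3, but 6 genes of the lists beside them did, by edgeR's test of the difference (KO step minus WT step, log2). In the list of further replication genes these were 4, all with a larger fold change in KO cells. Mcm10, an initiation factor, differed by 0.63 ± 0.11 (adjusted p = 0.00299), with 216 CPM at day 3 and 203 CPM in EpiLC of KO cells, and 183 CPM at day 3 and 267 CPM in EpiLC of WT cells. Rpa2, a subunit of the single-strand binding protein, differed by 0.67 ± 0.13 (adjusted p = 0.00934), with 136 and 145 CPM in KO and 114 and 194 CPM in WT cells at day 3 and EpiLC. Hells differed by 0.65 ± 0.16 (adjusted p = 0.0272), with 433 and 600 CPM in KO and 380 and 825 CPM in WT cells, and its call was lost in 7 of 12 fits without a library (0.51 to 0.74). Rfc5, a clamp loader subunit named here after its value was seen, differed by 0.47 ± 0.12 (adjusted p = 0.0317), with 168 and 181 CPM in KO and 151 and 224 CPM in WT cells. For each of the 4 the KO mean lies under WT in EpiLC and above it at day 3. Among the regulators Rb1 differed by -1.87 ± 0.24 (adjusted p = 0.000434) and Cdkn1a by -1.36 ± 0.35 (adjusted p = 0.0325). The Cdkn1a call was lost in 8 of 12 fits without a library (-1.61 to -0.82) and was -0.82 ± 0.17 without the library labelled KO EpiLC A2 (adjusted p = 0.0069). That library, with 238 CPM, stands above all others, while KO EpiLC A5 and B1, with 91.9 and 110 CPM, lie among the KO day 5 libraries (93.4 to 119 CPM).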

How the results depend on the processing

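No call of a named gene turned its direction under any alternative, but some values near 0 did. Without line A2 the median of the 14 replication factors between KO and WT cells went from 0.06 to -0.01 at day 3. At day 5 it went from 0.04 to -0.03. The log2 fold change of Ccnd3 between KO and WT EpiLC, not called with all libraries, went from 0.01 to -0.42. Counts of members called moved as follows. Fits without 1 library left out libraries of the compared groups only, unless another library is named. In KO against WT EpiLC (4 called) a fit of only the groups compared called 0, fits without 1 library 0 to 9, and leaving the members on chromosomes 1, 8, 11 and 16 out of the count, chosen after seeing the data, left 2. At day 3 (5) DESeq2 called 8, leaving out line A2 gave 8, and fits without 1 library 1 to 8. At day 5 (7) the counts were 12 without line A2 and 3 to 13 without 1 library. Without the library labelled KO EpiLC A2 they were 10 higher and 5 lower (15.1% and 12.5% of all tested genes). The WT step to day 3 (21) stayed between 15 and 19 without 1 library of its groups. Without the library labelled KO EpiLC A2 it had 9 higher and 14 lower (31.9% and 31.3% of all tested genes). The KO step (18) gave 9 with only the groups compared, 11 without the 4 chromosomes and 17 to 21 without 1 library. For WT day 5 against day 3 (0) RLE factors gave 1, DESeq2 2 and only the groups compared 17, with 0 in every fit without 1 library of those groups. Without the library labelled KO EpiLC A2 it was 0 higher and 4 lower (2.13% and 2.5% of all tested genes). Without all of line A2 it was 1 higher and 12 lower (7.58% and 7.95%). The replicate block, which for WT samples shares only numbers, gave 3 there (Top2a, Aurka and Aurkb, adjusted p = 0.0255, 0.0262 and 0.0337). For KO day 5 against day 3 (0) DESeq2 gave 1, the block 1, leaving out line A2 8 and leaving out 1 library 0 to 1. For the difference of the step to day 3 (0) they were 3, 4, 5 and 0 to 3, and for that of the step to day 5 (0) leaving out line A2 gave 1 and single libraries 0. Shares of all tested genes moved between fits too. Without line A2 those called higher between KO and WT cells went from 5% to 10.6% at day 3 and from 9.83% to 15.7% at day 5. Without the library labelled KO EpiLC A2, KO day 5 against day 3 had 0 members higher and 2 lower (1.6% and 1.07% of all tested genes). The cause was not tested in any of these.

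Of 127 calls of single genes, RLE factors and DESeq2 kept all 127, limma-trend lost 12, no filter lost 10, the groups compared alone lost 36, and leaving out line A2 lost 5 and kept 81. Fits without 1 library kept 592 calls and lost 200. The replicate block kept all 82 calls of named genes it bears on. The calls it added among the 38 genes are given above or with the results, and in the further lists it added, for example, 4 mitosis genes and 1 regulator in WT day 5 against day 3, where none was called without it. In the KO step to day 3 it lost 1 gene of the further mitosis list and 1 regulator. The mean of mitosis minus replication genes is 0.59 in KO EpiLC and 0.58 in WT EpiLC over all 20 replication genes, and -0.03 and -0.22 over the 14 factors, chosen after seeing the data. Each group has 3 libraries, the KO lines vary more than WT libraries, and Ccnd2 rests on 1 to 9 counts in most day 3 and WT day 5 libraries.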

Other observations

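Within the 18 mitosis genes the fold change varied with exon length, and the sign of the relation differed between comparisons. Exon length is that of all annotated exons of a gene joined, which may exceed the length of a transcript. Spearman's rho between exon length and log2 fold change was 0.57 in the KO step to day 3 and 0.43 in the WT step, against 0.07 and 0.11 over the 12764 tested genes with a length. Between KO and WT cells it was 0.59 in EpiLC, 0.62 at day 3 and 0.43 at day 5 for mitosis genes, and 0.25, 0.13 and 0.13 over all genes with a length. From day 3 to day 5 it turned negative, with -0.49 in KO and -0.16 in WT cells for mitosis genes, and -0.11 and -0.15 over all genes with a length. In the 49 further mitosis genes it was 0.24 in the KO and 0.12 in the WT step to day 3, 0.17 to 0.18 between KO and WT cells, and -0.57 in KO and -0.43 in WT cells from day 3 to day 5. The relation was not particular to mitosis genes. In the 47 further replication genes rho was 0.45 to 0.57 between KO and WT cells, and 0.37 in the KO and 0.13 in the WT step. From day 3 to day 5 it was -0.37 in KO and -0.27 in WT cells. In the 20 replication members rho was 0.01 to 0.24 between KO and WT cells, and -0.16 in the KO and -0.11 in the WT step. These are descriptions across genes, which share their libraries and are not independent replicates.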
